A study of Mus musculus with 12 samples.

Results

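The regions described here were accessible chromatin sites of mouse liver found after vertical sleeve gastrectomy (VSG) and in neither comparison group. FAIRE-seq crosslinks chromatin with formaldehyde and sequences the DNA left free of nucleosomes, and 1 list of reproducible peaks was at hand for each of the 3 groups. Merging these lists gave 59249 union regions. The members were chosen by their peak calls, as the 2262 regions that overlapped a VSG peak by at least 1 bp and overlapped no Control and no Sham peak. Membership was set by the peak lists themselves, so presence in the VSG list and absence from the others is a description and was not tested.

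All mice were male wild-type C57BL/6J. Control mice stayed on standard chow for 28 weeks and had no surgery. Sham and VSG mice were started at 8 weeks of age on a diet with 60 kcal% saturated fat, were fed it for 14 weeks before surgery and for 14 weeks after it, and took a liquid diet for the first 4 postoperative days. In VSG mice about 80% of the stomach was resected along its side, whereas in Sham mice the stomach was isolated and pressed with forceps. FAIRE-seq and RNA-seq were each carried out on the livers of 2 mice per group, 12 samples in all, with RNA taken from the livers used for FAIRE. VSG and Sham mice therefore differ by the kind of surgery on the same diet, while both differ from Control mice by the high-fat diet, an operation and the liquid diet together, which cannot be told apart.

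Accessible chromatin marks DNA that regulatory proteins can reach. Promoters next to transcription start sites (TSSs) are often GC-rich, overlap CpG islands and stay open in many tissues. Enhancers far from a TSS are more often bound by tissue-specific factors, in liver by HNF4A, FOXA, C/EBP and nuclear receptors. Open chromatin permits transcription but does not by itself tell how much of a gene is transcribed.

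Sequences of 8 regions are shown because each holds a match to 1 of the motifs counted further on and lies at, in or nearest to a gene that the text describes. All are on the plus strand of mm9 (NCBIM37), 5′ to 3′, with stretches annotated as untranslated left out and at most 300 bases shown. The first 4 lie within 1000 bp of an annotated TSS and the first 3 of them carry matches, in capitals, to an element of nuclear receptors (AGGTCA), to the ETS motif (CCGGAAG) and to the FOXA motif (TGTTTAC), each searched on both strands. Cyp3a11 encodes a cytochrome P450 that oxidises drugs and steroids, and its stretch at chr5:146691541-146691625 lies at the TSS. Acacb encodes acetyl-CoA carboxylase 2, which makes the malonyl-CoA that limits fatty acid oxidation, and its region spans chr5:114698112-114698359. The Acacb region covers an internal coding exon, 101692 bp from the outermost TSS of the gene and 25475 bp from the nearest TSS of a coding or lincRNA transcript, so it lies near the TSS of a non-coding transcript and not at the main promoter. Il1rn encodes the interleukin 1 receptor antagonist, and its region spans chr2:24200209-24200447, at an alternative TSS 7955 bp from the outermost one. Kdr encodes a receptor of vascular endothelial growth factor, and its stretch spans chr5:76374484-76374684 with the SP1 motif (GGGCGG, or CCGCCC on the other strand) in capitals.
Cyp3a11: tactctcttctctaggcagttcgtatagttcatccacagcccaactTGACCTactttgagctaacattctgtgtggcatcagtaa
Acacb: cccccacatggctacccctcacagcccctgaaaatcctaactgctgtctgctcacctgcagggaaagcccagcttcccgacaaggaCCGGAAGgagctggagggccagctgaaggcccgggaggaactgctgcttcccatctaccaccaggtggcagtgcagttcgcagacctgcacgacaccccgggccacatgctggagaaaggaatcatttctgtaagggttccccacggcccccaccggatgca
Il1rn: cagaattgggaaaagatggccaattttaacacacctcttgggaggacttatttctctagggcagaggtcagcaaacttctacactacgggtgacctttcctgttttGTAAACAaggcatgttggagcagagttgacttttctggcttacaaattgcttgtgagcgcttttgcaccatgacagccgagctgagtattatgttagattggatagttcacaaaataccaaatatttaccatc
Kdr: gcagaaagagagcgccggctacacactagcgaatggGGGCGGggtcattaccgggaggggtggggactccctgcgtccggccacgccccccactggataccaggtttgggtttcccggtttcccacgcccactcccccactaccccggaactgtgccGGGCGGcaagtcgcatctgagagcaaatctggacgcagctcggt

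The other 4 sequences also show the SP1 motif in capitals. Lrat encodes lecithin retinol acyltransferase, which stores vitamin A in stellate cells, and its stretch spans chr3:82707896-82708086. The region with the highest signal of all members lies between genes nearest to Cyb5b, a cytochrome b5 of the outer mitochondrial membrane, at chr8:109729577-109729873. Fat4 encodes a large cadherin, and the stretch of its intronic region spans chr3:38784267-38784566. Mrps6 encodes a protein of the mitochondrial ribosome, and the stretch of its promoter region spans chr16:92058074-92058373. Counting only the motif shown in capitals, the Kdr and Fat4 stretches each held 2 matches and the other sequences 1 match each. Matches to other motifs are not marked, such as those to AGGTCA in the Il1rn region.
Lrat: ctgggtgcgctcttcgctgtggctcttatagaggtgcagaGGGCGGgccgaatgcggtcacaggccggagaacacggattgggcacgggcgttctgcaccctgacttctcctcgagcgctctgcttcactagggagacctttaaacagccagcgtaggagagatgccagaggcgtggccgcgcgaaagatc
Cyb5b: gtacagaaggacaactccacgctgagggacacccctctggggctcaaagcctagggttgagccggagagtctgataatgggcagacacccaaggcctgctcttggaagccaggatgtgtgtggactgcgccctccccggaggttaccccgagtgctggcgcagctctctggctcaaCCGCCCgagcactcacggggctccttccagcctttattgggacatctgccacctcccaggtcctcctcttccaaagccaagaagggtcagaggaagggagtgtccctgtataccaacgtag
Fat4: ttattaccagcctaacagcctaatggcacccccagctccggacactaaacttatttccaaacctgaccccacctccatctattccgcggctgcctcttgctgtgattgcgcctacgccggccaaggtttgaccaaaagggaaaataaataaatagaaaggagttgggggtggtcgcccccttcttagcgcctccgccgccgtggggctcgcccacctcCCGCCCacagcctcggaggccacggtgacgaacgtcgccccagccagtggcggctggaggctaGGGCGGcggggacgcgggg
Mrps6: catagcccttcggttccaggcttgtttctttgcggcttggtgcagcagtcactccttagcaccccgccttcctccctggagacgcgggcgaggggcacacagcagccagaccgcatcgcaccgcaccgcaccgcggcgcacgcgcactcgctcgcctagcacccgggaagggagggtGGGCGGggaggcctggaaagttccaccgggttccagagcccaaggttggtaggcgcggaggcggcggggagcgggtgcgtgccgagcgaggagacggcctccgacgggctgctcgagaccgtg

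The VSG-only regions were weak and short peaks of the VSG list. They were 2262 of the 42940 union regions with a VSG peak (5.27%), and each consisted of a single VSG peak. Their F-seq signal, the density of reads that the authors used to call a peak, had a median of 0.175 and ran from 0.156 to 0.415, against a median of 0.298 over the 44539 peaks of the VSG list. The median member stood at percentile 11.4 of that list, and only 9 members exceeded the median of the list. When the VSG regions were ranked by signal into 10 equal bins, 24.1% of the weakest bin were VSG-only, 16.0% of the next, 7.61% of the bin after it, and 0 of the 3 strongest bins. Hence 1724 of the members (76.2%) fell in the lowest 2 bins. The lowest signals of the lists were 0.137 for Control, 0.193 for Sham and 0.156 for VSG mice, and 1679 members (74.2%) had a VSG signal under the lowest one of the Sham list. No source states that the signals of the lists share a scale, and whether these regions fell short of a list threshold in the other groups was not tested. The read counts behind the peaks were not analysed here, so the depth is unknown and no region has a value per mouse.

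**Figure D1:**
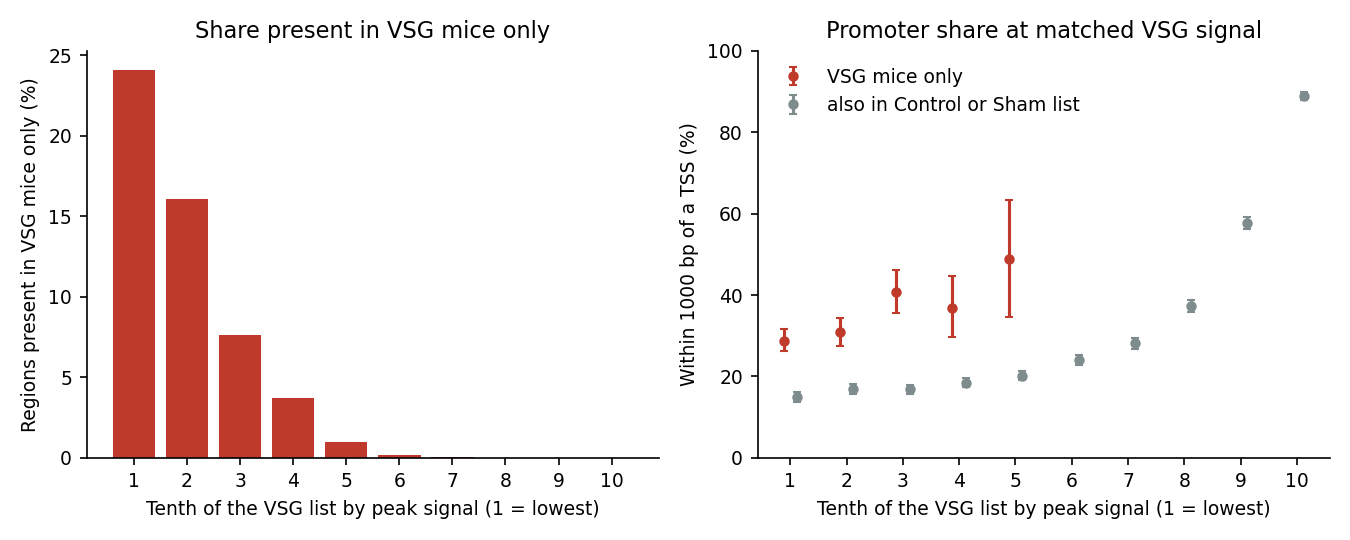
Share of VSG-list regions that were present in VSG mice only, by bin of VSG signal from lowest (1) to highest (10), on the left, and share within 1000 bp of a TSS on the right, for VSG-only regions (red, bins with at least 20 of them) and for regions also in the Control or Sham list (grey), with 95% Wilson intervals. VSG-only regions fall from 24.1% of the weakest bin to 0 in the strongest bins. In bins 1 to 5 their promoter share lies above that of the other regions of equal signal, which were pooled whichever list they shared.

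Some members lay close to the threshold of the rule. The members nearest to another list were at Mcam (2 bp from a Control or Sham peak), Sfi1 (11 bp) and Angptl8 (14 bp), with VSG signals of 0.178, 0.208 and 0.180. The VSG peaks that just missed membership overlapped another list by 3 bp, 9 bp and 14 bp, with signals of 0.172, 0.169 and 0.158, and 5 VSG peaks overlapped another list by under 50 bp. The median gap from a member to the nearest Control or Sham peak was 2932 bp. A gap under 1000 bp was found for 761 members (33.6%) and a gap of at least 10 kb for 581 (25.7%).

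About as many VSG-only regions lay at promoters as in introns. Within 1000 bp of a TSS, the window used here for a promoter, lay 728 members (32.2%, 95% Wilson interval 30.3 to 34.1%). Another 797 (35.2%) were intronic, 621 (27.5%) intergenic and 116 (5.13%) exonic. The median distance to a TSS was 4686 bp, and 141 members (6.23%) were further than 100 kb from any TSS. The share at promoters lay between that of Control-only regions (27.7%, 26.2 to 29.3%) and that of regions of all 3 groups (36.9%, 36.4 to 37.4%), whereas Sham-only regions (7.16%, 6.67 to 7.67%) and regions shared by Sham and VSG mice (9.62%, 8.90 to 10.4%) had lower shares. Regions shared by Control and VSG mice had a share at promoters of 45.6% (43.4 to 47.9%). A TSS here is the start of any annotated transcript of a protein-coding or lincRNA gene, so a promoter can be that of an alternative transcript. Of the 728 promoter members, 532 lay within 1000 bp of the outermost TSS of a gene and 668 of the TSS of a protein-coding or lincRNA transcript, and 188 overlapped a coding exon. With outermost TSSs alone the promoter share was 23.5% for VSG-only, 19.8% for Control-only, 4.01% for Sham-only and 31.0% for all-group regions, in the same order. These intervals cover counting error over regions only. With 1 list per group that pools 2 mice, no test across mice was possible for any share of regions.

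**Figure D2:**
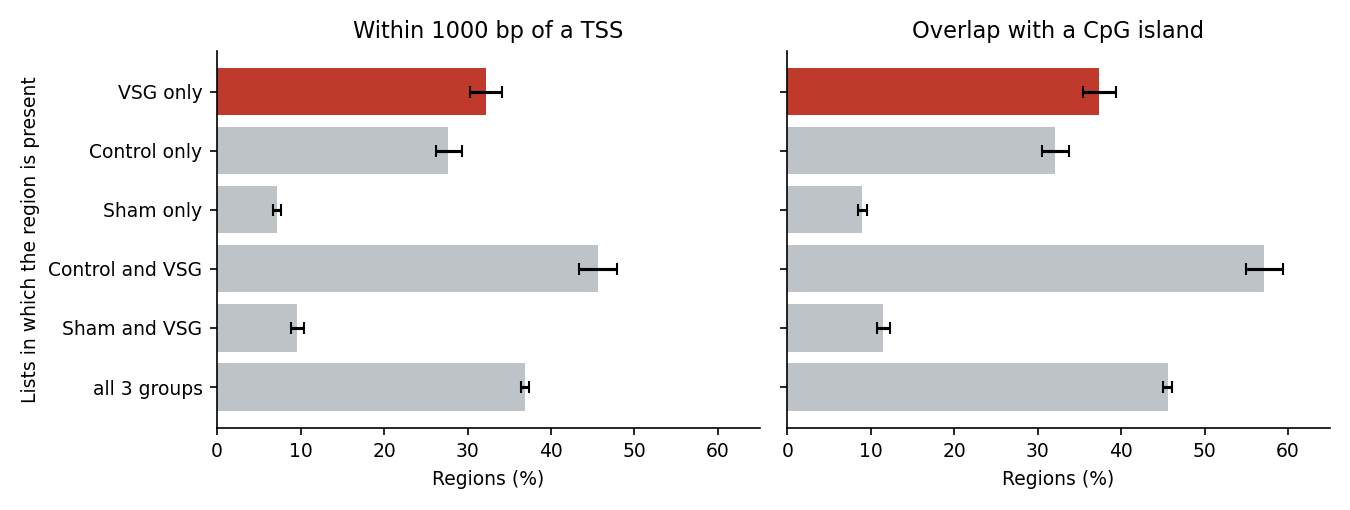
Percent of regions within 1000 bp of a TSS (left) and percent that overlap a CpG island (right), by the lists in which a region is present. Bars start at 0 and lines are 95% Wilson intervals over regions, and VSG-only regions (red, 32.2% and 37.4%) lie above Control-only regions (27.7% and 32.1%) and far above Sham-only regions (7.16% and 8.99%).

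At equal signal, VSG-only regions lay at promoters more often than the pool of VSG regions that another list held. Over the whole list, this pool included 6083 regions shared by Sham and VSG mice and 1879 shared by Control and VSG mice. Their promoter shares lay below and above that of the members, as given above, and were not split by signal. Among the weakest bin of the VSG list, 28.8% of VSG-only regions (299 of 1038) and 14.9% of the other 3274 regions lay at promoters. In bin 3 the shares were 40.7% (133 of 327) and 16.8%, and in bin 5 they were 48.8% (21 of 43, interval 34.6 to 63.3%) and 20.2%. In the other VSG regions the promoter share rose with signal up to 89.0% in the strongest bin, where no VSG-only region was found.

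Promoter members sat close to the TSS. The median distance was 204 bp, 361 of the 728 (49.6%) were within 200 bp, and 357 (49.0%) were upstream. The 200 bp just upstream of the TSS held 228 of them (31.3%), against 35.5% for regions of all 3 groups, 18.4% for Sham-only and 14.0% for Control-only promoter regions. The 200 bp just downstream held 18.3%, against 33.3% for regions of all 3 groups. Control-only promoter regions were shifted into the gene, with 35.3% upstream of the TSS.

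**Figure D3:**
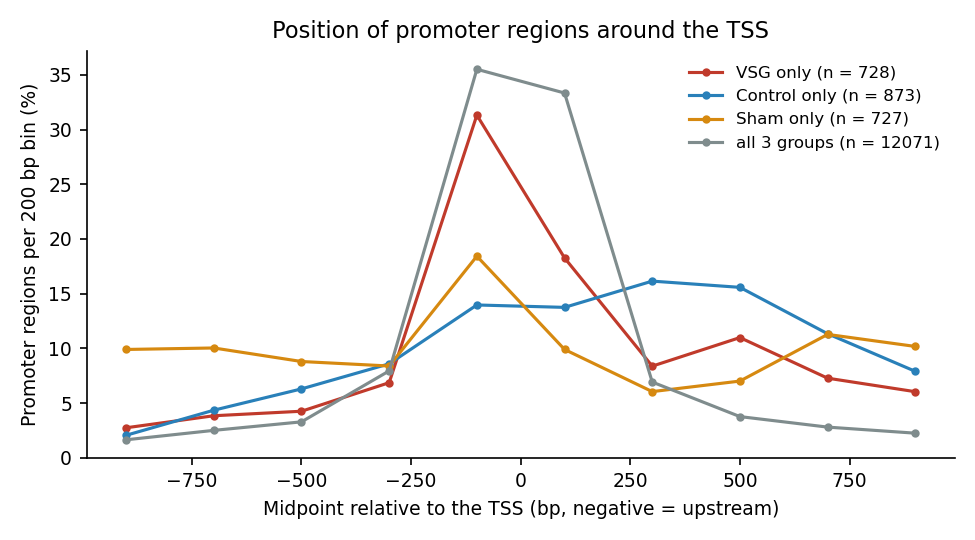
Position of the midpoint of promoter regions relative to the nearest TSS, as the percent of each set in bins of 200 bp. The VSG-only curve (red) peaks in the bin just upstream of the TSS at 31.3%, as does the curve of regions of all 3 groups (grey, 35.5%), while Control-only regions (blue) are spread downstream.

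Many of these promoters held a further open region. For 346 of the 728 promoter members (47.5%) a Control or Sham region lay within 1000 bp of the same TSS, and for 273 (37.5%) that neighbour was a region of all 3 groups. No Control or Sham region lay in that window for 382 promoter members (52.5%), among them those at Pparg, Nfkb1 and Lrat. CpG islands overlapped 272 of these 382 regions (71.2%) and 274 of the 346 accompanied ones (79.2%).

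VSG-only regions were richer in GC than Sham-only regions. The central 200 bp of a member had a median GC content of 57% (quartiles 52.5 and 62.5%), against 49% in Sham-only, 55% in Control-only and 55% in regions of all 3 groups. A CpG island, here any window of 200 bp with at least 50% GC and an observed over expected CpG ratio of at least 0.6, overlapped 846 members (37.4%, 35.4 to 39.4%), 8.99% of Sham-only, 32.1% of Control-only and 45.6% of all-group regions. Within promoters, islands were found in 75% of members, 26.8% of Sham-only, 72.2% of Control-only and 86.0% of all-group regions. Among distal members the share was 19.6%, which is also the share in distal VSG regions that another list held. Promoters accounted for 546 of the 846 members with an island.

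The SP1 motif was common in VSG-only regions. SP1 binds GC boxes in promoters of widely expressed genes, and its motif GGGCGG was present in the central 200 bp of 541 members (23.9%), against 17.2% of all union regions. In promoter members the share was 44.8%, next to 45.6% in promoter regions of all 3 groups, 27.5% of Control-only and 8.67% of Sham-only promoter regions. In distal members it was 14.0% (interval 12.4 to 15.8%), above the 10.2% of distal regions of all 3 groups and the 4.28% of Sham-only distal regions. The ETS motif CCGGAAG, another promoter motif, was present in 4.64% of members and 3.95% of all regions, and by location in 6.18% of promoter members but in 11.2% of promoter regions of all 3 groups, and in 3.91% of distal members against 2.29%. CCAAT, the motif of NFY, was found in 17.8% of members and 23.7% of all regions, and was likewise less common in promoter members (14.8%) than in promoter regions of all 3 groups (24.9%).

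Among distal regions, the FOXA, HNF4A, AGGTCA, NFI and AP-1 motifs were less common in VSG-only than in Sham-only regions. The FOXA motif TGTTTAC was found in 3.78% of distal members and 5.96% of distal Sham-only regions, and in 2.15% of distal Control-only regions. HNF4A, searched as TGACCTTTG, was found in 1.11% and 2.12%, and in 0 of the 728 promoter members (95% Wilson upper bound 0.525%). The element AGGTCA, whose complement TGACCT is contained in the HNF4A motif, was found in 24.2% and 27.7%. The NFI element TTGGCA was present in 13.6% of distal members, 22.1% of distal Sham-only regions and 18.9% of distal regions of all 3 groups. AP-1, searched as TGACTCA, was present in 5.28%, 9.80% and 6.18%. The core motif of CTCF was found in 0.456% of distal members and 2.63% of distal Control-only regions. Over all locations the shares in members and in the whole union were 3.18% and 3.92% for FOXA, 0.752% and 1.43% for HNF4A, 20.1% and 21.9% for AGGTCA, 11.8% and 16.6% for NFI, 4.46% and 5.82% for AP-1 and 0.442% and 0.891% for CTCF. The other motifs searched had shares in members and the union of 4.20% and 5.45% for STAT (TTCNNNGAA), 3.85% and 3.89% for the TATA box (TATAAA) and 5.08% and 5.73% for the E-box (CACGTG). The CRE motif (TGACGTCA) was present in 0.486% of members and 0.384% of Sham-only regions, NRF1 (GCATGCGC) in 0.486% and 0.433%, and C/EBP (TTGCGCAA) in 0.0884% and 0.226%, with overlapping intervals for each of these motifs. A match describes letters in a window and does not show that a factor was bound.

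**Figure D4:**
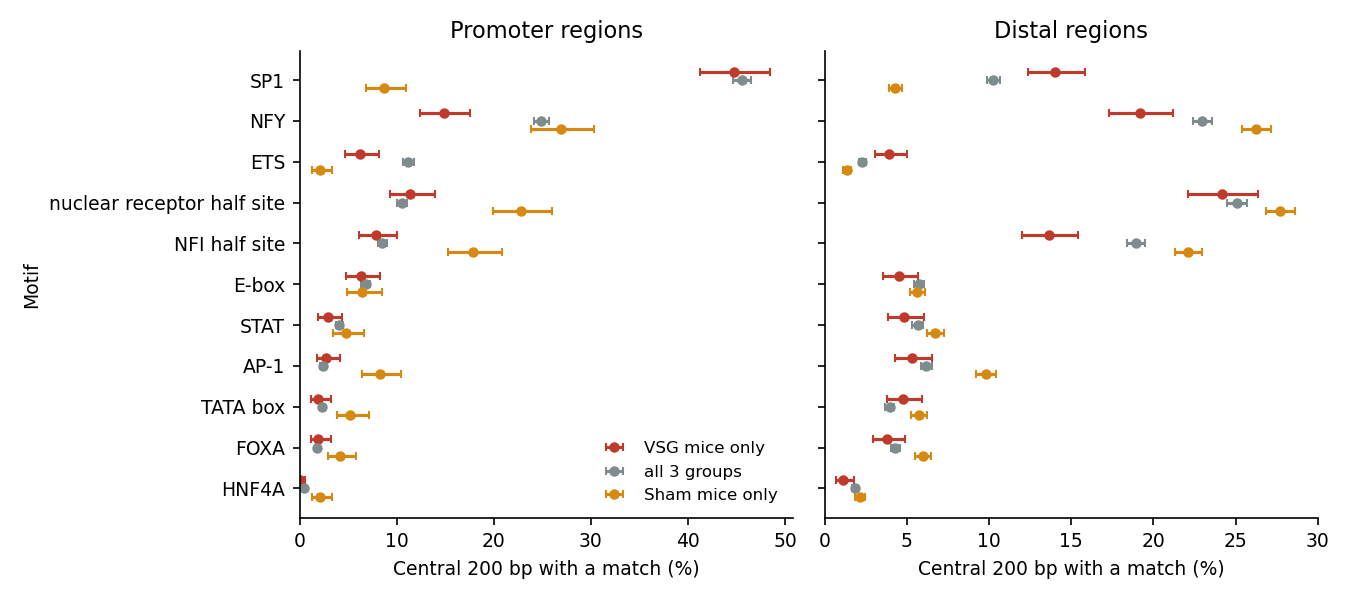
Percent of regions with a motif match in their central 200 bp, for promoter regions (left) and distal regions (right), with 95% Wilson intervals over regions, for VSG-only (red), all-group (grey) and Sham-only regions (orange). SP1 matches are in 44.8% of VSG-only promoter regions and 14.0% of VSG-only distal regions, and Sham-only regions have the lowest SP1 shares of the 3 sets.

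Of the members, 111 (4.91%) coincided with the 414 sites that the authors deposited as more accessible in VSG than Sham mice, which is 26.8% of those sites. Another 114 of the sites were shared by Control and VSG mice and 189 were present in all 3 groups. Both the site list and the rule rest on the same libraries, so this overlap is no independent test. No member overlapped the 175 deposited sites that were lower in Sham than in both other groups. Such sites were more accessible in Control than in Sham mice, and the rule excludes regions with a Control peak. The rule itself therefore works against this overlap. The 111 regions comprised 47 promoter, 36 intergenic, 25 intronic and 3 exonic regions. They had a median GC content of 61.5% with wide quartiles (40.5 and 68.3%), and 61 of them (55.0%) overlapped a CpG island. The SP1 motif was present in 33 (29.7%), and the FOXA motif in 0 (95% Wilson upper bound 3.35%).

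The strongest of these 111 regions lay in an annotated intron upstream of a Fat4 TSS (chr3:38784267-38784808, signal 0.318) and at the promoters of Phldb1 (chr9:44542261-44543486, 0.300), Mrps6 (chr16:92058074-92058750, 0.296) and Cldn15 (chr5:137441951-137442616, 0.271), a claudin of tight junctions. Another lay 9721 bp upstream of Clpb, a mitochondrial chaperone, at chr7:108802279-108802573 (signal 0.291). Fat4 and Cldn15 mRNA stayed below 0.2 FPKM (fragments mapped to a transcript, scaled by its length and by sequencing depth) in all 6 livers and was not tested. FPKM of Mrps6 was 13.3 and 9.29 in Control mice, 14.8 and 13.5 in Sham mice and 17.4 and 14.3 in VSG mice. The Mrps6 groups overlapped between Sham and VSG mice, and the log2 difference of 0.15 ± 0.26 (SE) was within the spread.

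The 10 members with the highest signal further included promoter regions of Rbpj, the DNA-binding partner of Notch (at an alternative TSS, chr5:53981807-53982015, 0.317), Ces1c, a carboxylesterase (chr8:95655109-95655552, 0.309), Tmem266 (chr9:55174759-55175091, 0.304) and Ccnd2, a D-type cyclin (chr6:127100949-127101177, 0.301). The remaining ones were the Cyb5b region, an intronic region of Podn (chr4:107697921-107698216, 0.318), a region downstream of Mib1 and a region in an exon whose nearest TSS is that of Fgf1. The Cyb5b, Mib1 and Fgf1 regions lay 55164, 115352 and 83108 bp from the nearest TSS. A Control or Sham peak lay 41 bp from the Rbpj region and 253 bp from the Podn region. Ces1c was highly expressed, with an FPKM of 1026 and 941 in Control, 576 and 234 in Sham and 704 and 1571 in VSG mice. The VSG values of Ces1c lay above both Sham values but on either side of the Control values, and the gene did not pass the test against Sham (log2 difference 1.52 ± 0.60 SE, adjusted p = 0.94 by limma).

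The members were scattered over 1928 nearest genes, of which 1660 had 1 member. Only 268 members (11.8%) lay within 10 kb of another member. The genes with most members were Septin9, Tns1, Fgf1 and Gm3395 with 5 each, followed by 9 genes with 4, the first by name being Adgre5, an adhesion receptor of leukocytes. Septin9, a cytoskeletal GTPase, had 3 members within 1000 bp of 1 of its TSSs. The member at chr11:117060859-117061429 lay at the outermost TSS, and those at chr11:117169169-117169655 and chr11:117186939-117187186 at alternative TSSs. The 5 members of Tns1, a tensin of focal adhesions, were intronic and lay 10375 to 56129 bp from the nearest TSS. Those of Gm3395 were intergenic on chromosome Y, at 230659 to 343520 bp, and those of Fgf1 lay at 3115 to 90761 bp. By chromosome, the share of VSG regions that were VSG-only ran from 3.47% on chromosome 3 to 7.69% on chromosome X, with 5 of 27 (18.5%) on chromosome Y.

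At the RNA level, few genes were called between the groups. RNA-seq of the same livers was tested with limma on log2(FPKM + 1), summed per gene, keeping 9748 genes that reached 1 FPKM in 2 or more mice. Genes under a false discovery rate (FDR) of 10% were called. VSG mice enter both VSG comparisons and Control mice enter both Control comparisons, so these are not independent. The tissue is bulk liver, in which fewer cells of a type and less RNA per cell cannot be told apart. Within 10 kb of a TSS lay 1394 members, whose 1262 nearest genes gave 1206 genes with an RNA value, and 723 of these passed the filter. Between VSG and Sham mice 0 of the 723 were called by limma (all genes 0.0513%), and 55 had an unadjusted p under 0.05 (7.61%, against 4.86% of all genes). Between VSG and Control mice 2 of 723 were called, Tat and Cyp3a25 (all genes 0.287%). Between Sham and Control mice 1 was called, Tat (all genes 0.308%).

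The median log2 difference between VSG and Sham mice was 0.13 for these 723 genes and 0.08 for all 9748 genes, and 63.6% against 59.8% were higher in VSG mice. Against Control mice the medians were 0.13 and 0.13 (0.125 for all genes), and between Sham and Control mice -0.01 and 0.03. The median log2(FPKM + 1) of the 723 genes was 2.44 and 2.38 in Control mice, 2.21 and 2.61 in Sham mice and 2.49 and 2.72 in VSG mice. The 2 Sham mice enclosed the Control values and 1 of the VSG values, so that the shift of the median is smaller than the spread between mice of a group. In both VSG mice the FPKM lay above all 4 other mice for 68 of the 723 genes (all genes 9.05%), and below all 4 for 24 of them (all genes 3.19%). These shares are close to the background. The FPKM were not rescaled between mice. The median log2 offset of a mouse from the mean of all mice was 0.1208 and 0.1195 in VSG mice and -0.05575 to 0.08054 in the others. Its part in the higher count above than below was not tested.

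Classes of neighbours are given beside all genes, of which 4.86% had an unadjusted p under 0.05. For the 392 tested genes with a member within 1000 bp of the TSS, the median VSG to Sham difference was 0.09, with 0 called and 27 at that level (6.89%). For the 150 tested genes whose promoter held no Control or Sham region the median was 0.08, with 0 called and 12 at that level (8%). For the 29 tested genes next to a region of the deposited VSG list it was 0.15, with 0 called and 3 at that level (10.3%). Of the genes whose promoter held a member and no Control or Sham region, 42.4% passed the filter, with a median of 2.25 FPKM. The filter was passed by 40.6% of all genes, with a median of 5.92 FPKM, and by 60.0% of all genes near members.

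Among the genes within 10 kb of a member, Tat, the liver enzyme that degrades tyrosine, differed from Control mice in both operated groups. Its FPKM was 1376 and 1477 in Control, 210 and 188 in Sham and 233 and 283 in VSG mice. Tat was lower in all 4 operated mice, without overlap, by a log2 difference of -2.47 ± 0.24 (SE) in VSG mice (adjusted p = 0.0662 by limma) and of -2.84 ± 0.24 in Sham mice (adjusted p = 0.0436 by limma). The VSG to Control call was lost without either Control mouse or either VSG mouse (adjusted p from 0.197 to 0.651), without the FPKM filter (0.104), among genes above 0 in every mouse (0.160) and with the replicate block (0.229). In the Sham to Control comparison, where Tat was the gene called among the neighbours, 0 neighbours were called with the replicate block and without either Control mouse. VSG and Sham mice did not differ past the threshold (0.37 ± 0.24, adjusted p = 0.94 by limma). The member next to Tat is exonic, 5598 bp downstream of the TSS at chr8:112519852-112520155, with a signal of 0.156, close to the lowest of the list. A Control or Sham peak lay 486 bp from this member.

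Cyp3a25, a cytochrome P450 of the 3A family, was listed at 0 in both Control mice, at 60.5 and 35.1 FPKM in Sham mice and at 114 and 724 FPKM in VSG mice. The call against Control (adjusted p = 0.0944 by limma) therefore rests on values of 0, and no fold is given. The paper reports the other direction between Sham and Control mice, with Cyp3a25 lower in Sham mice and reversed in VSG mice. An exact 0 FPKM can be a failed estimate, which holds likewise for the values of 0 given for Sirpa, Acacb, Gpam and Kdr. It was lost on leaving out any 1 mouse except VSG mouse 1 (adjusted p from 0.114 to 0.537), without the FPKM filter (0.138), for single transcripts (0.112) and with the replicate block (0.242). The related gene Cyp3a11 was at 1603 and 1293 FPKM in Control, 48.6 and 7.33 in Sham and 100 and 828 in VSG mice. The VSG values lay between those of the other groups and differed widely between the 2 mice, and neither contrast passed (3.83 ± 1.28 against Sham, adjusted p = 0.94, by limma). The Cyp3a11 region covers the TSS (18 bp from its midpoint, chr5:146691419-146691625, signal 0.197), and the nearest Control or Sham peak was 24588 bp away. Reads of the similar Cyp3a genes can be shared between them, so their separate values are uncertain.

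In both VSG mice several genes lay outside the range of the other 4 mice, without a call. They were named for this pattern, and its share among the neighbours, 9.41% above the other 4, is near that of all genes (9.05%). Alpl encodes tissue-nonspecific alkaline phosphatase, and its FPKM was 3.67 and 1.47 in Control, 1.76 and 2.17 in Sham and 10.6 and 9.92 in VSG mice. Both VSG values lay above the other 4, at a log2 difference from Sham of 1.93 ± 0.36 (SE) and an adjusted p of 0.54 by limma. The Alpl region (chr4:137351681-137352199, signal 0.179) lay 205 bp downstream of an alternative TSS and 359 bp from the outermost one. It was among the deposited VSG sites. A Control or Sham peak lay 158 bp from it. Acsm5, an acyl-CoA synthetase of medium-chain acids, was at 23.8 and 25.6 FPKM in Control, 20.6 and 21.0 in Sham and 38.1 and 48.4 in VSG mice (1.01 ± 0.21, adjusted p = 0.68 by limma). Hsd17b2, which inactivates estradiol and testosterone, was at 54.2 and 46.3 FPKM in Control, 52.2 and 44.4 in Sham and 88.5 and 76.5 in VSG mice (0.76 ± 0.22, adjusted p = 0.94 by limma). Its region, 162 bp inside the gene, spans chr8:120225736-120226279 with a signal of 0.157, and a Control or Sham peak lay 253 bp away.

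Both VSG mice also lay above the other 4 for Anks4b, Rara, Rnf170, Ctbp1, Sparc and Sirpa. Rara, the retinoic acid receptor alpha, was at 5.22 and 4.10 FPKM in Control, 1.28 and 3.01 in Sham and 5.96 and 8.05 in VSG mice. Sirpa, a receptor of macrophages, was listed at 0 in both Sham mice and 1 Control mouse and was at 1.55 and 6.14 FPKM in VSG mice. The summed FPKM of 11 Kupffer cell markers was 104 and 344 in VSG mice and 35.4 to 136 in the other 4, so it was highest in the VSG mouse with the higher Sirpa value, and its part in that value was not tested. Sparc, an extracellular matrix protein, was at 10.2 and 10.7 FPKM in VSG mice and at 4.34 to 9.30 in the others. The summed FPKM of 8 stellate cell markers was 61.4 and 85.3 in VSG, 21.7 and 33.4 in Sham and 58.2 and 59.4 in Control mice, and its part in the Sparc values was not tested.

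In the opposite direction, Slc25a33, a mitochondrial carrier of pyrimidine nucleotides, was at 23.1 and 19.7 FPKM in Control, 17.6 and 18.6 in Sham and 10.01 and 11.3 in VSG mice. Both VSG values were below all others, at a log2 difference from Sham of -0.72 ± 0.20 (SE) and an adjusted p of 0.93 by limma. Its promoter region (chr4:149147534-149148216, signal 0.220) was also a deposited VSG site, and a Control or Sham peak lay 97 bp away. Card10, a scaffold protein of NF-kappaB signalling with 2 intronic members, was at 2.84 and 2.46 FPKM in Control, 2.48 and 3.76 in Sham and 1.07 and 0.992 in VSG mice (-1.002 ± 0.26, adjusted p = 0.84 by limma). Both VSG mice also lay below the other 4 for Bcl3, Epc2, Gimap1, Litaf, Luzp1, Map3k1 and Tfeb, none of which was called.

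**Figure D5:**
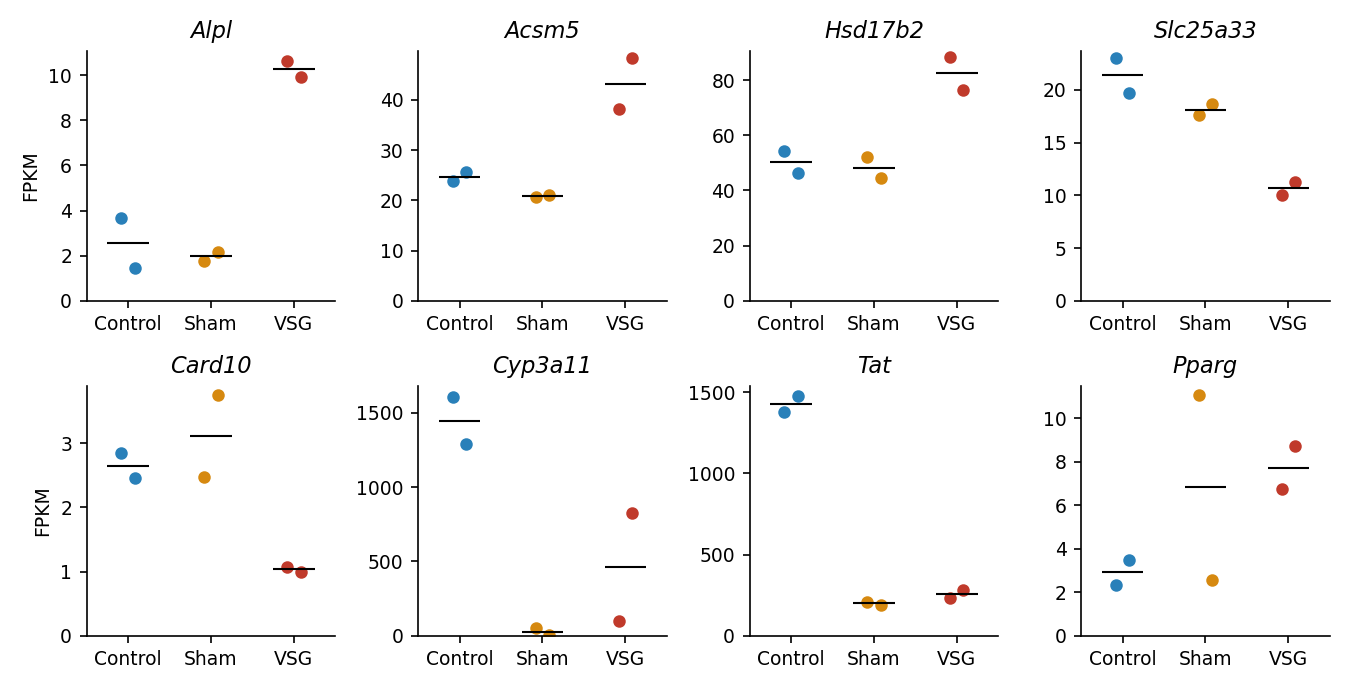
FPKM of 8 genes with a VSG-only region within 10 kb, with 1 point per mouse, 2 mice per group and a line at the mean, on linear axes that start at 0. The VSG mice lie above all others for Alpl, Acsm5 and Hsd17b2 and below all others for Slc25a33 and Card10, Tat is lower in Sham and VSG than in Control mice, and Cyp3a11 and Pparg values overlap or differ widely between mice of a group.

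VSG-only regions lay near some genes of fatty acid and triglyceride synthesis, whereas 2 other lipid lists were near the share of all genes. These were fatty acid oxidation and ketone bodies (4.76%) and cholesterol synthesis and uptake (5%). Among the 9748 genes tested for RNA, 723 were nearest to a member within 10 kb. Over all 22006 annotated genes with a symbol, 1231 (5.59%) had a member within 10 kb, and 4 of 20 genes of fatty acid and triglyceride synthesis did, namely Acacb, Srebf1, Gpam and Pnpla3. The Acacb region, in an internal coding exon as given above, lay 106 bp upstream of the TSS of a non-coding transcript, 29226 bp from the nearest Control or Sham peak, and was among the deposited VSG sites (signal 0.258). Acacb mRNA was at 3.79 and 11.6 FPKM in Control, 0.829 and 0 in Sham and 1.11 and 1.86 in VSG mice. The VSG values lay between those of the other groups, and no contrast of Acacb was called. Srebf1, the main transcription factor of fatty acid synthesis, had a region near an alternative TSS, 16025 bp from the outermost one, at chr11:60019790-60020325 (signal 0.164). A Control or Sham peak lay 641 bp from this region. Srebf1 was at 7.42 and 6.64 FPKM in Control, 22.9 and 11.4 in Sham and 6.23 and 37.3 in VSG mice, so that the 2 VSG mice enclosed all others. Gpam was listed at 0 in all 6 mice, and Pnpla3 was below the filter. Of the 18 tested genes of the list, 0 were called between VSG and Sham mice (all genes 0.0513%).

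The lipid droplet list had members at Pparg and Plin2. Pparg encodes the nuclear receptor PPAR gamma, which drives fat storage and rises in fatty liver. Its region (chr6:115310772-115310922, signal 0.164) lay 392 bp upstream of a TSS, and the nearest Control or Sham peak was 58262 bp away. The FPKM of Pparg was 2.34 and 3.50 in Control, 11.1 and 2.58 in Sham and 6.75 and 8.73 in VSG mice. Both VSG mice were above both Control mice and within the range of the Sham mice, and no contrast was called. Plin2, which coats lipid droplets, had a region 740 bp downstream of an alternative TSS and 1240 bp from the outermost one (chr4:86314646-86314802, signal 0.173). The FPKM of Plin2 ranged from 92.8 to 369, with the groups overlapping. A Control or Sham peak lay 809 bp from the Plin2 region.

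Xenobiotic, bile acid and fuel genes gave a similar picture. The counts of this paragraph come from short lists and stand beside 5.59% of all annotated genes with a member within 10 kb. Of 20 targets of the receptors CAR and PXR, 5 had a member within 10 kb, namely Cyp3a11, Cyp3a25, Abcc3, Alas1 and Por. Alas1, the first enzyme of heme synthesis, was at 140 and 190 FPKM in Control, 225 and 128 in Sham and 219 and 420 in VSG mice, with overlap. Among the 17 tested CAR and PXR targets, 0 were called between VSG and Sham mice (all genes 0.0513%). Against Control (all genes 0.287%), Cyp3a25 was called higher, from the Control values of 0 given above, and Cyp2b10 lower. Cyp7b1 and Abcc2 were the genes near a member among 22 of bile acid synthesis and transport. Cyp7b1, of the alternative bile acid pathway, ranged from 68.2 to 304 FPKM, and both extremes were VSG mice. Cyp4a10, a fatty acid hydroxylase and the neighbour among 21 genes of fatty acid oxidation, was at 263 and 536 FPKM in Control, 163 and 103 in Sham and 274 and 267 in VSG mice, so both VSG mice lay above both Sham mice (1.06 ± 0.44 SE, adjusted p = 0.94 by limma). Of 18 genes of glucose and insulin signalling, G6pc and Pdk2 had a member. G6pc, the last step of glucose release, was at 144 and 272 FPKM in Control, 24.3 and 27.0 in Sham and 87.8 and 150 in VSG mice. VSG values of G6pc were above both Sham values, at 2.12 ± 0.42 (SE) and an adjusted p of 0.61 by limma, and overlapped those of the Control mice.

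Transcription factor and signalling genes were also among the neighbours, beside 5.59% of all annotated genes. Over all genes, 0.0513 to 0.308% were called in a contrast, so 0 calls in a short list says little about that list. Foxa1, Foxa3, Nfib, Nfic and Nr3c1 were among the neighbours from a list of 26 liver transcription factors, with 3 members for Nfic alone, and 0 of the 24 tested were called in any contrast. Atf3, Dusp1, Egr3, Jun and Nr4a3 were those among 23 immediate early genes, all outside the promoter window. Jun had a region of the deposited VSG list 3339 bp downstream of its TSS (chr4:94715410-94715636, signal 0.245) and an FPKM of 13.0 and 18.2 in Control, 7.06 and 13.8 in Sham and 74.4 and 18.2 in VSG mice, so that 1 VSG mouse stood far apart. Dusp1, a phosphatase that inactivates MAP kinases, was at 26.5 and 17.1 FPKM in Control, 8.34 and 4.06 in Sham and 25.9 and 20.4 in VSG mice. For Dusp1 both VSG mice lay above both Sham mice and within the range of the Control mice (1.81 ± 0.40 SE against Sham, adjusted p = 0.72 by limma). Chromatin regulators with a member were Crebbp, Ctcf, Dnmt3a, Ezh1, Hdac3 and Sirt1, 6 of 29, and none of the 23 tested genes of that list was called in any contrast. Clock genes near a member were Cry2, Dbp and Nfil3, 3 of 19, and Dbp was at 48.2 and 68.8 FPKM in VSG mice against 16.9 to 40.4 in the others (1.10 ± 0.49 SE against Sham, adjusted p = 0.94 by limma).

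Of 28 genes of chemokines, toll-like receptors and inflammation, Nfkb1 and Nfkbia (7.14%) had a member, and of 24 acute phase genes Crp, Il1rn and Saa4 (12.5%) did, beside 5.59% of all annotated genes. Nfkb1, a subunit of NF-kappaB, had a region 60 bp inside the gene (chr3:135354360-135354539, signal 0.216) with the nearest other peak 49248 bp away, and an FPKM of 2.54 to 4.34 over the 6 mice with no separation of the groups. Il1rn was at 23.0 FPKM in 1 Sham mouse and at 1.999 to 4.65 in the other mice. No gene of endoplasmic reticulum stress (0 of 17) and 1 of 20 genes of cholesterol synthesis and uptake, Fdft1, lay within 10 kb of a member. E2f3 and Mki67 did among 20 cell cycle genes, both at the promoter. Genes of these lists were not called between VSG and Sham mice (all genes 0.0513%).

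Marker genes of several liver cell types were also among the neighbours. They were Alb and Tat of 8 hepatocyte markers, Kdr and Stab1 of 7 markers of sinusoidal endothelial cells, Lrat of 8 of stellate cells and C1qa of 11 of Kupffer cells. No marker of cholangiocytes (6 genes), neutrophils (7), T cells (5) or B cells (4) had a member within 10 kb. Over all annotated genes the share was 5.59%, so counts from lists this short do not separate cell types. The RNA filter was passed by 2 cholangiocyte, 3 neutrophil, 0 T cell and 0 B cell markers. Lrat was at 1.42 and 2.18 FPKM in VSG, 0.659 and 0.767 in Sham and 1.29 and 1.19 in Control mice. Both VSG mice were above the other 4, without a call (0.70 ± 0.26 SE against Sham, adjusted p = 0.94 by limma), and the stellate cell marker sum given above was also highest in VSG mice, whose part in the Lrat values was not tested. Kdr ranged from 0 to 1.49 FPKM with overlap, while the summed FPKM of the 7 endothelial markers was 32.9 and 28.7 in VSG, 8.71 and 7.58 in Sham and 44.9 and 19.3 in Control mice. Hepatocyte markers summed to between 8780 and 16940 FPKM in the 6 livers, with 6 of 8 markers having a value, and pancreas markers to at most 0.623 FPKM. Cyp2c29, Cyp7a1, Cd14 and Nr4a1 had no member within 10 kb. The nearest one was 38637 bp from Nr4a1, 178662 bp from Cyp7a1, 212372 bp from Cd14 and 876791 bp from Cyp2c29.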

How the data were processed

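FAIRE-seq and RNA-seq were carried out on livers of 2 mice in each of 3 groups. Per the paper's methods, the authors aligned FAIRE reads to mm9 with bowtie1, discarded multiply mapped, improperly paired and duplicate reads, and passed F-seq peaks through IDR, which retains peaks found in both mice, so each deposited list holds 1 signal per peak for 2 pooled mice and its depth is unknown. For RNA, the deposited FPKM per transcript came from Cufflinks after TopHat2 alignment. The labels name poly(A) enrichment and the methods ribosomal RNA depletion for these libraries, which bears on transcripts without a poly(A) tail. Site lists came from the authors' DESeq2 analysis and hold positions only. The authors' comparison tables (fold changes and p-values) were not used.

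Peaks sharing at least 1 bp were merged. The nearest TSS was that of any transcript, alternative and non-coding ones included, of a protein-coding or lincRNA gene of the GENCODE annotation of NCBIM37, from the region's midpoint. Motifs were searched on both strands of the central 200 bp. FPKM values were summed per gene, with 34042 of 34933 transcripts matched to 24019 genes, and 20759 of 23653 annotated genes had a value. Differences, on the log2(FPKM + 1) scale, which understates those of low genes, were fitted to all 6 mice with limma 3.58.1 (R 4.3.3, moderated with a trend) and adjusted with Benjamini-Hochberg over 9748 genes, and an adjusted p under 0.1 was called. An exact permutation test of 2 against 2 mice reaches 0.333 at the lowest, so none was used, and p-values rest on the spread between 2 mice per group. Intervals are 95% Wilson intervals. Other steps used Python 3.11.15. Functions were tested on simulated data.

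The regions, gene lists, motifs and tests were chosen with earlier results of these data known. Regions named were the 10 with the highest signal, the 5 highest among the deposited VSG sites, those of the 5 genes with most members and those within 1000 bp of a listed gene's TSS. Genes named were those within 10 kb that were called in a VSG contrast, filled up to 10 in each direction by smallest p among genes with both VSG mice outside the other 4, listed genes within 10 kb, and Cyp2c29, Cyp7a1, Cd14, Nr4a1 and Pparg. In all 73 alternatives were planned, and the counts of called neighbour genes and the changes of single genes under them, and the promoter shares with other sets of TSSs, were added after seeing the data. Some items of the lists are not reported here.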

Additional observations from a re-analysis of the deposited data

How the results depend on the processing

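The shares of VSG-only regions moved with the peaks admitted. Taking the same number of strongest peaks from each list gave 2781 regions, 27.4% at promoters, 31.8% with a CpG island and 3.20% in the deposited VSG list. Only the 50% of VSG peaks with the highest signal left 9 regions, of which 55.6% were at promoters, 55.6% on islands and 22.2% in that list. VSG peaks of at least 250 bp gave 993 regions with 37.9%, 46.1% and 6.45%. A gap of at least 1000 bp left 1501 regions with 25.3% at promoters and 31.9% on islands. Promoter windows of 500 and 2500 bp gave 23.3% and 41.7%. Only the outermost TSS of each gene gave 23.5%, and only TSSs of protein-coding and lincRNA transcripts 29.8%, both chosen after seeing the data. Single peaks without merging gave identical values.

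Counts of called genes were unstable. Over all genes, VSG against Sham gave 5 calls, 8 with a pseudocount of 0.1, 0 for genes above 0 in every mouse and 9 for single transcripts. VSG against Control gave 28 calls and 2 for genes above 0 in every mouse. Sham against Control gave 30 calls, 62 without the FPKM filter and 13 for genes above 0 in every mouse. Leaving out 1 mouse gave 0 to 77, 0 to 39 and 0 to 169 calls in these comparisons, with the highest counts without Sham mouse 2 (VSG against Sham and Sham against Control) or Sham mouse 1 (VSG against Control). Where a group kept 1 mouse, it was assumed to vary like the others. With the replicate block the calls were 0, 10 and 9. Deviations of mice with the same number correlated at 0.106, 0.059 and 0.0304, so the numbers were not taken to pair the mice.

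Among the genes near VSG-only regions, single transcripts gave 2 calls between VSG and Sham mice in place of 0, and leaving out 1 mouse gave 0 to 9, with 9 without Sham mouse 2 and 4 without Sham mouse 1. Against Control the 2 calls became 1 without the filter, 0 for genes above 0 in every mouse and 0 with the replicate block, and 0 to 2 without 1 mouse, with 0 without either Control mouse. Between Sham and Control mice 1 call became 2 with a pseudocount of 0.1, 2 without the filter, 6 for single transcripts and 0 with the replicate block, and 0 to 11 without 1 mouse. The median differences of these genes moved by less than the spread of 0.190 (SD) between mice of a group under every alternative. Under scaling by median ratios, the median of all genes shifted to -0.003 and the neighbour genes to 0.04 between VSG and Sham mice. Between VSG and Sham mice Tfeb turned from -0.87 to 0.0796 for its single transcript with the smallest p. The cause of these changes was not tested.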
